A study of Mus musculus with 342 samples.

Results

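The UDP-glucuronosyltransferases (Ugt), cytosolic sulfotransferases (Sult) and glutathione S-transferases (Gst) were described in the livers of male Collaborative Cross mice given a single dose of TAK-875 or its vehicle. The set held every gene whose array symbol began with Ugt or Sult and a digit, or with Gst, a class letter and a digit, except Ugt3a2, Sult3a1, Sult5a1, Sult1e1 and Gstt2, which were left out. This gave 28 genes of the 9093 measured: 8 Ugt, 6 Sult and 14 Gst genes. The rule itself uses gene symbols and no expression value, although the set was chosen with earlier results of these data known. Where several probe sets were assigned to a gene and to no other, the 1 with the highest signal averaged over the arrays stood for it.

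Collaborative Cross lines are inbred and descend from several founder strains, so mice of a line share a genotype while lines differ across the genome. TAK-875 (fasiglifam) activates the fatty acid receptor FFAR1, was developed for type 2 diabetes, and left clinical development over liver safety. Mice of 8 to 10 weeks received TAK-875 at 600 mg/kg, or 0.5% methylcellulose in water alone, by oral gavage in 10 ml/kg, and livers were taken 24 h later. There were 171 TAK-875 mice and 171 vehicle mice in 171 matched study pairs from 44 lines, of which 39 contributed 4 pairs and the other 5 contributed 3. Each liver was hybridised to 1 mouse expression array and its values are on the log2 scale, so that a difference of 1 is a doubling of the signal.

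The 3 families carry out the conjugation step of drug and hormone metabolism. Ugt enzymes transfer glucuronic acid from UDP-glucuronic acid to phenols, steroids, bile acids, bilirubin and many drugs, and TAK-875 itself is in part cleared as an acyl glucuronide. Sult enzymes transfer sulfate from the cosubstrate PAPS to phenols, catecholamines, steroids and bile acids, and Gst enzymes join glutathione to electrophiles such as epoxides and aldehydes formed from lipid peroxidation. In liver many of these genes are targets of the nuclear receptors CAR and PXR, of the aryl hydrocarbon receptor or of the oxidant sensor NRF2, and several Ugt2b and Sult2a genes differ in level between male and female mice.

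The promoters of 4 members are printed because these genes form the contrasting pairs of neighbours described below: Gstm5 and Gstm7, of which the first was low in the vehicle lines where the second was highest, and Gstt1 and Gstt3, whose mean differences after TAK-875 had opposite signs. Each is the RefSeq window of 300 bases, from 250 bases before the annotated start to 50 after it, in the gene's own direction on build GRCm38.p6. It is the reference sequence and not that of any line used here. Capitals mark matches, on either strand, to TGACNNNGC (the core of the antioxidant response element bound by NRF2), AGGTCA (a nuclear receptor half-site) or GCGTG (the core bound by the aryl hydrocarbon receptor).
Gstm5, chr3:107895604-107895903, plus strand: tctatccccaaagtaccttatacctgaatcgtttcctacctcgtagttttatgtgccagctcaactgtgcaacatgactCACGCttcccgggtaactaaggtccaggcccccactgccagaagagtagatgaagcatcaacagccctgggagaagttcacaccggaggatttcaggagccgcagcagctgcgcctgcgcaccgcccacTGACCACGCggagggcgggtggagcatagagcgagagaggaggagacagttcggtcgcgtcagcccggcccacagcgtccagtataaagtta
Gstm7, chr3:107931768-107932067, minus strand: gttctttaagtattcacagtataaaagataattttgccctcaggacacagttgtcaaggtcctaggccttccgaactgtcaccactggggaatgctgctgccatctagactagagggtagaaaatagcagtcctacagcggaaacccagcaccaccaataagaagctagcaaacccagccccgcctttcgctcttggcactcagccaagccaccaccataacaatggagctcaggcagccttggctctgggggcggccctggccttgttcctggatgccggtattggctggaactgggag
Gstt1, chr10:75797682-75797981, minus strand: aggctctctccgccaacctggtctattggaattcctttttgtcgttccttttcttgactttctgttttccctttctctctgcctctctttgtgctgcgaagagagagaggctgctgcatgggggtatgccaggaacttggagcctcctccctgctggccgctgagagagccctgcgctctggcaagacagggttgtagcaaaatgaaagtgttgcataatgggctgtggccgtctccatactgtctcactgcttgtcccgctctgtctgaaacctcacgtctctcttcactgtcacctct
Gstt3, chr10:75781373-75781672, minus strand: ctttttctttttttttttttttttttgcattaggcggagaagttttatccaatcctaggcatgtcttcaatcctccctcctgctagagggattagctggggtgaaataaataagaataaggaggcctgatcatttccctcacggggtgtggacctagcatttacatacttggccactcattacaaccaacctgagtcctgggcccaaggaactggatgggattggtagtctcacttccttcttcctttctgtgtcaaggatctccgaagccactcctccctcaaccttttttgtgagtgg

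Of the members, 25 matched a RefSeq window, and Gsta4, Sult2a2 and Sult4a1 had no entry. TGACNNNGC lay in 1 of the 25 windows (4%), that of Gstm5, where it began 42 bases before the start, against 12.4% of all 27025 windows. GCGTG lay in 5 of the 25 (20%), against 32.5% of all windows. The window of Gstm5 held it on either strand at 171 and at 38 bases before the start, and the second of these overlapped the TGACNNNGC match. AGGTCA lay in 5 of the 25 (20%), against 16.0% of all windows. The windows of Gstm7, Gstt1 and Gstt3 held none of the 3 motifs.

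Arrays of a line and dose correlated with each other at a median r of 0.9755, and 17 TAK-875 arrays and 9 vehicle arrays had a median r below 0.95, which touched 24 study pairs. Over the 300 genes that differed most between vehicle lines, 339 arrays correlated best with the mean of their own labelled line, at r of 0.669 or more. The other 3 were labelled CC010/GeniUnc. The TAK-875 and vehicle mice of strain pair 2 correlated at 0.21 and 0.20 with their labelled line and at 0.94 and 0.93 with CC033/GeniUnc, and the TAK-875 mouse of strain pair 4 correlated at -0.11 with its own line and best, at 0.53, with CC019/TauUnc. Both pairs were kept under their labels, and counts without them are given beside each comparison. In CC015/Unc, the vehicle mice of strain pairs 1 and 3 stood apart in several members, as described under the sulfotransferases. Nothing beyond the pairs says whether mice were housed or handled together, so p-values measure the spread between lines, pairs and mice as labelled.

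The first question was how far these genes differ between lines before any drug. Among vehicle mice all 28 members differed between lines (limma moderated F test on 171 vehicle arrays, Benjamini-Hochberg adjusted p of 0.0018 at most). This is close to the background, since 98.0% of the 9093 genes did so. The size of the differences in signal was the more informative measure. Lines differ in sequence and all arrays carry the same probes. A difference in RNA level and a difference in probe binding between lines therefore cannot be told apart here. The SD between line means, after the sampling variance of mice within lines was subtracted, had a median of 0.44 log2 over the members, against 0.25 over all genes. By family the median was 0.28 over the 8 Ugt genes, 0.51 over the 6 Sult genes and 0.67 over the 14 Gst genes. Gstm3, Gstt1, Gstm2 and Gstp3 had an SD above 1, which 160 of the 9093 genes reached. Without the 2 uncertain pairs of CC010/GeniUnc all 28 members again differed between lines.

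**Figure D1:**
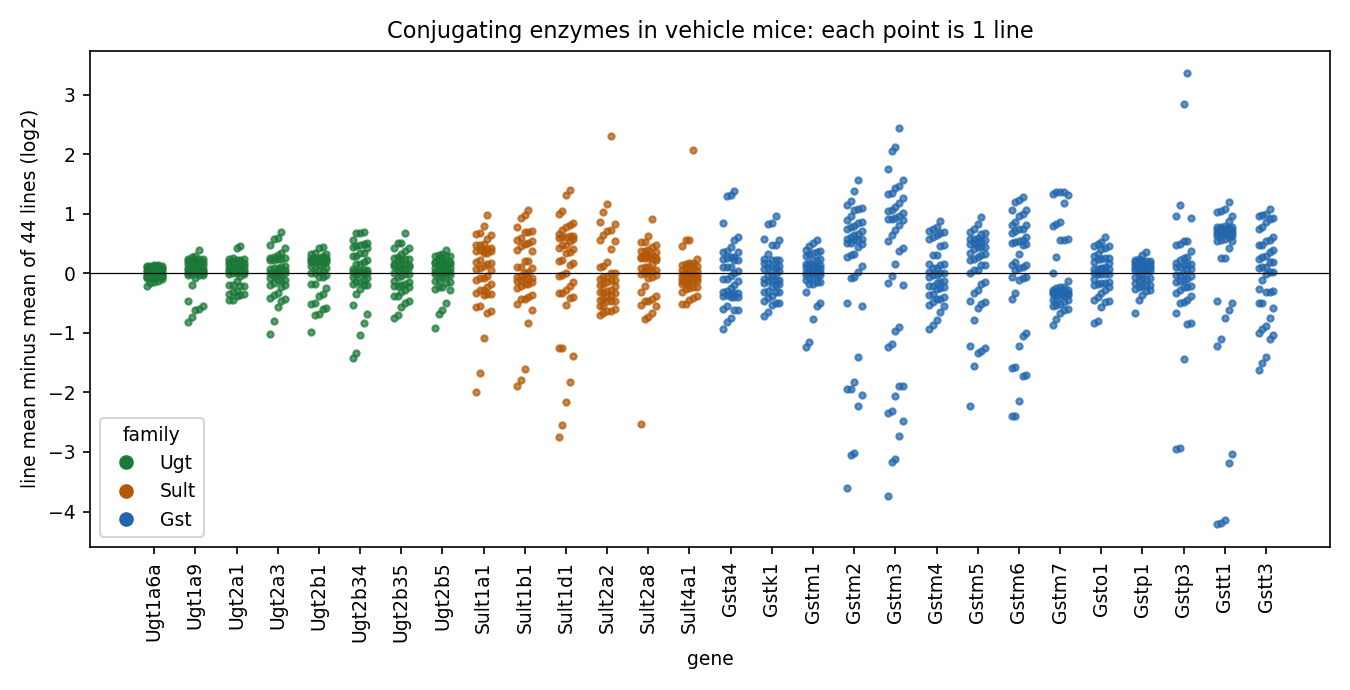
Levels of the 28 genes in vehicle mice. Each point is the mean of the vehicle mice of 1 line minus the mean of the 44 lines for that gene (log2), and colours mark the family. The Ugt points stay close together, Ugt1a6a most of all (SD between lines 0.079), while Gstm2, Gstm3, Gstp3 and Gstt1 spread over several log2 units.

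The widest gap between 2 sets of lines, measured from the highest vehicle line mean of the lower set to the lowest of the upper set, was at the theta class, whose enzymes act on small halogenated compounds and epoxides. Gstt1 had a lowest, median and highest value of 6.36, 10.99 and 11.60 in TAK-875 mice, against 4.93, 11.14 and 11.90 in vehicle mice. The vehicle means of CC008/GeniUnc (6.30), CC030/GeniUnc (6.32), CC022/GeniUnc (6.37), CC025/GeniUnc (7.33) and CC017/Unc (7.48) lay below those of the other 39 lines, which began at 9.29. The 2 sets of lines did not overlap in any mouse. In TAK-875 mice the low lines reached at most 8.22 and the other lines began at 8.93, and in vehicle mice these limits were 8.06 and 8.87. The SD between lines was 1.49, against 0.27 between vehicle mice of a line (limma adjusted p = 1.17e-85). All 44 lines stayed on the same side of the gap after TAK-875.

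Gstp3, a pi class gene next but one to Gstp1 on chromosome 19, had high and low lines at both ends. CC052/GeniUnc held 11.76, 11.56, 11.35 and 11.79 in its TAK-875 mice, against 11.18, 11.62, 10.84 and 12.10 in its vehicle mice. CC071/TauUnc held 11.91, 11.72, 11.98 and 11.99 in TAK-875 mice, against 11.71, 12.09, 11.96 and 12.04 in vehicle mice. The line means of the other 42 lines ended at 9.54 in TAK-875 mice and at 9.74 in vehicle mice. CC033/GeniUnc and CC035/Unc lay lowest, with vehicle means of 5.64 and 5.65. CC007/Unc split within the line: strain pair 3 of its TAK-875 mice had 11.46 and the other 3 had 7.86 to 8.78, and strain pair 1 of its vehicle mice had 12.13 while the other 3 had 7.62 to 7.90. Both of these mice correlated best with their own labelled line over the 300 genes. The mice of CC010/GeniUnc strain pair 2, which correlated with CC033/GeniUnc, had 5.94 at TAK-875 and 6.76 at vehicle, the lowest of their labelled line. Gstp1 moved little between lines, with an SD of 0.21 and vehicle line means of 12.46 to 13.47, and its lowest line was CC024/GeniUnc.

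**Figure D2:**
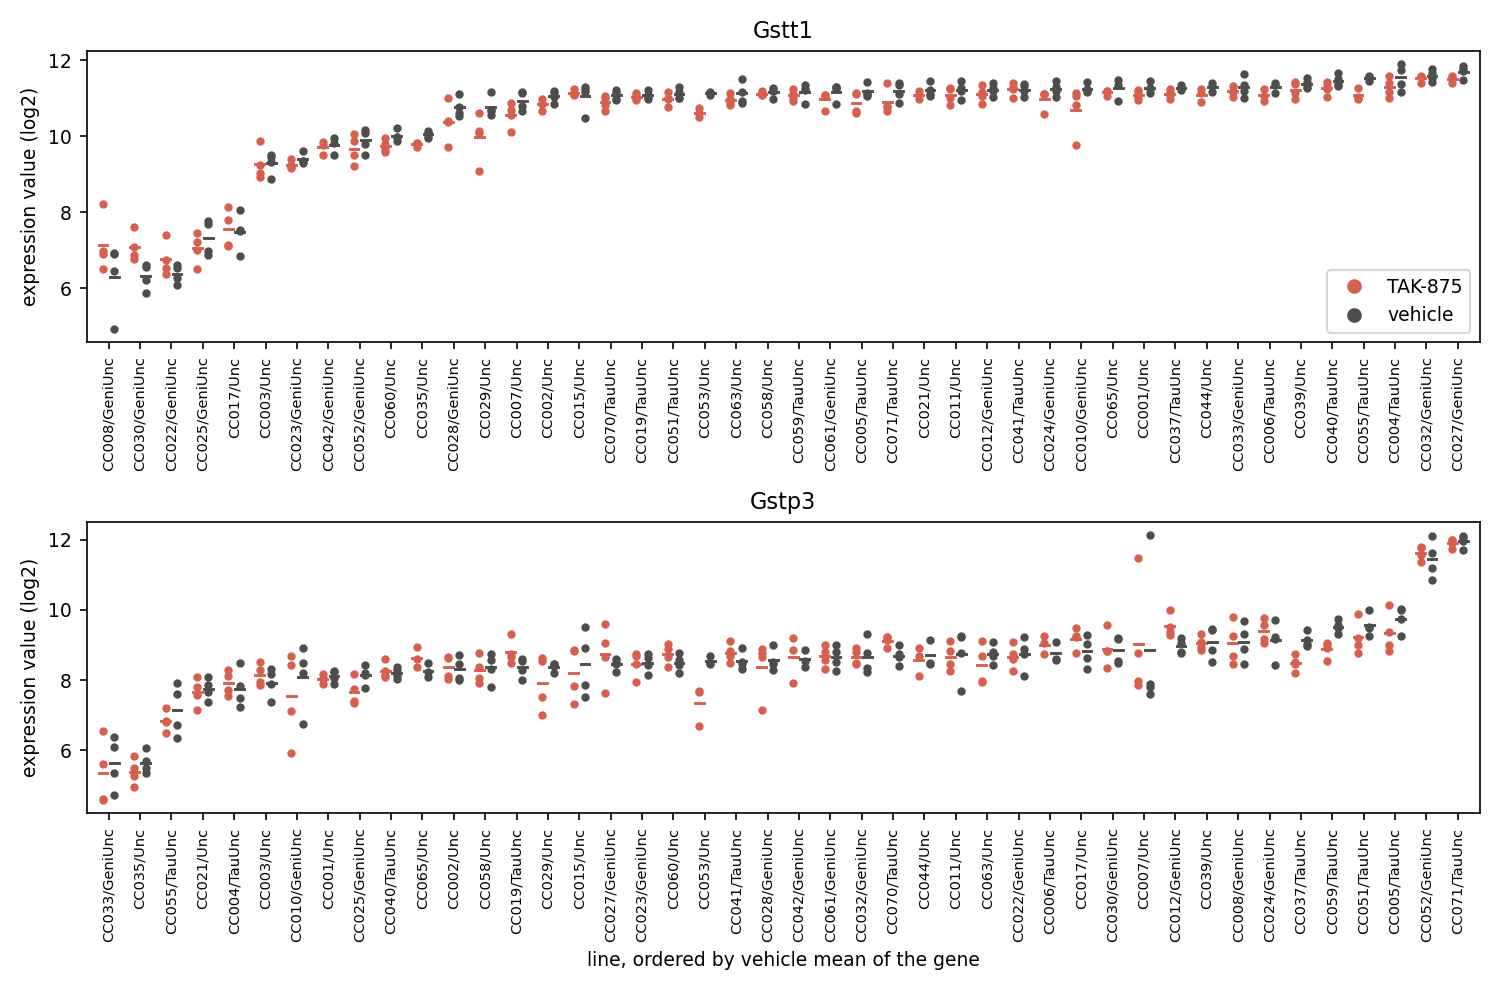
Gstt1 and Gstp3 in every mouse. Points are mice (log2 expression value), short bars are means, TAK-875 mice are left of vehicle mice in each line, and lines are ordered by the vehicle mean of the gene. Gstt1 is low in 5 lines at either dose, and Gstp3 is high in 2 lines and in 1 mouse per dose of CC007/Unc.

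The 7 mu class genes measured, Gstm5, Gstm7, Gstm6, Gstm3, Gstm2, Gstm1 and Gstm4 in this order on chromosome 3 with no other coding gene between them, varied in blocks of lines. Gstm2 had a lowest, median and highest value of 6.67, 10.81 and 12.21 in TAK-875 mice, against 5.68, 10.76 and 11.98 in vehicle mice, and 9 lines formed a low group. Their vehicle means ended at 8.84, below the 9.70 at which the other 35 lines began, and in TAK-875 mice these limits were 9.20 and 9.90. The low group held CC004/TauUnc, CC006/TauUnc, CC012/GeniUnc, CC015/Unc, CC022/GeniUnc, CC042/GeniUnc, CC058/Unc, CC059/TauUnc and CC065/Unc. All 9 were also in the low group of Gstm6, where they made up 90% of its 10 lines, and in that of Gstm3, where they made up 64.3% of its 14 lines.

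Gstm7 ran the other way in part of these lines. Its highest 6 lines, CC006/TauUnc, CC012/GeniUnc, CC015/Unc, CC042/GeniUnc, CC059/TauUnc and CC065/Unc, had vehicle means of 10.75 to 10.95, against at most 10.45 in the other 38 lines. These 6 were all among the 9 lines with low Gstm2. In the same 6 lines Gstm5 had line means of 4.67 to 6.18 in TAK-875 mice and 4.85 to 6.51 in vehicle mice, while the other 38 lines had a median of 7.35 in TAK-875 mice and 7.42 in vehicle mice. Gstm4 in these lines lay at 9.16 to 9.95 in vehicle mice, against a median of 8.93 in the other lines. Thus Gstm2, Gstm3, Gstm5 and Gstm6 were low where Gstm7 was high. Gstm1 had vehicle means of 9.86 to 10.63 in these 6 lines, on both sides of its median of 10.47 in the other lines.

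The opposite courses of Gstm2 and Gstm7 did not hold within the 2 groups of lines. Among the 35 lines with high Gstm2 the correlation of the 2 genes over vehicle line means was 0.50, and among the 9 lines with low Gstm2 it was 0.73. Gstm2 and Gstm3 gave 0.00 in the 35 lines and 0.68 in the 9 lines, whereas Gstm2 and Gstm6 gave 0.64 and 0.18. Gstm5 and Gstm7 gave r = -0.63 and rho = -0.46 among the 38 lines below the gap of Gstm7, and r = -0.30 and rho = -0.49 among the 6 lines above it. All these points share the probe sets and arrays of 1 platform, and related sequences can bind the same probes, so the correlations are descriptions.

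**Figure D3:**
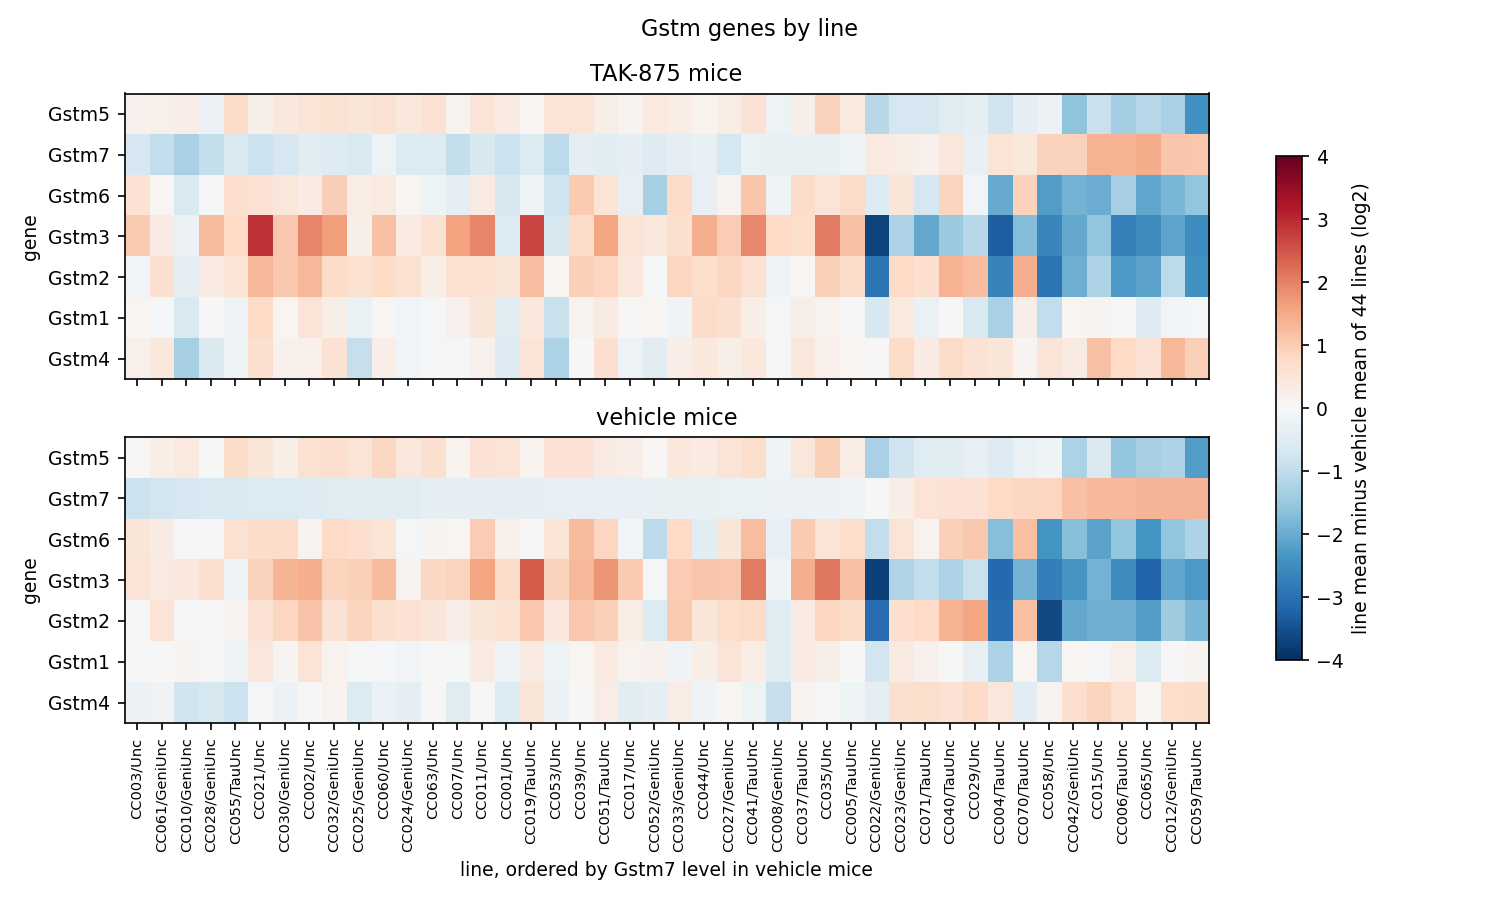
Mu class genes by line. Colour gives the line mean minus the mean of the 44 vehicle line means of the gene (log2), in TAK-875 mice above and vehicle mice below, with genes in chromosomal order and lines ordered by Gstm7 in vehicle mice. The lines at the right, high in Gstm7, are low in Gstm5, Gstm6, Gstm3 and Gstm2 in both panels.

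Among the remaining Gst genes, the SD between vehicle lines was 0.99 for Gstm6, 0.70 for Gstm5, 0.70 for Gstt3, 0.65 for Gstm7, 0.51 for Gsta4, which clears the lipid aldehyde 4-hydroxynonenal, 0.44 for Gstm4, 0.38 for the mitochondrial and peroxisomal Gstk1, 0.34 for Gstm1 and 0.34 for Gsto1, an omega class enzyme that reduces dehydroascorbate. Gsta4 was highest in CC070/TauUnc, CC001/Unc and CC025/GeniUnc, whose vehicle means of 10.34 to 10.43 lay above the 9.90 at which the other lines ended. Gstk1 was highest in CC063/Unc, CC053/Unc and CC025/GeniUnc at 11.20 to 11.33, against at most 10.95 elsewhere. For Gstk1 all 44 lines were on the same side of this gap in TAK-875 mice, and for Gsta4 43 of 44 were.

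Sulfotransferases of the Sult1 family also had lines with little signal. Sult1d1, which sulfates catecholamines, had a lowest, median and highest value of 3.38, 7.39 and 9.32 in TAK-875 mice, against 3.85, 7.35 and 9.01 in vehicle mice. In 7 lines (CC021/Unc, CC028/GeniUnc, CC055/TauUnc, CC003/Unc, CC032/GeniUnc, CC063/Unc and CC004/TauUnc) the vehicle mean was 5.85 or less, below the 6.57 at which the other 37 began, and all 44 lines kept their side in TAK-875 mice. Its neighbour Sult1b1, which sulfates phenols and thyroid hormones, was low in CC003/Unc (4.34 in TAK-875 mice and 4.09 in vehicle mice), CC032/GeniUnc (4.54 and 4.19) and CC021/Unc (4.73 and 4.37), while other lines began at 5.34 in TAK-875 mice and 5.14 in vehicle mice. These 3 lines were also low in Sult1d1. The SD between lines was 0.94 for Sult1d1 and 0.63 for Sult1b1.

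Sult1a1, the main phenol sulfotransferase of liver, had an SD between lines of 0.58 and was lowest in CC002/Unc, at 8.77, 9.26, 9.38 and 8.85 in TAK-875 mice and 9.19, 8.25, 8.99 and 8.19 in vehicle mice, and next lowest in CC058/Unc. Sult4a1, known mainly from brain, lay in the dimmest 25% of genes, with a median of 3.17 in TAK-875 mice and 3.19 in vehicle mice. The exception was CC032/GeniUnc, with 3.69, 5.34, 4.90 and 3.61 in TAK-875 mice and 5.59, 5.62, 5.86 and 4.10 in vehicle mice, against vehicle means of 3.79 at most in the other lines. No detection call was used here, so whether the other lines were above background was not tested. The SD between lines was 0.37 for Sult4a1.

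The hydroxysteroid sulfotransferases Sult2a2, which is mainly female in mouse liver, and Sult2a8, which is mainly male and acts on bile acids, turned on 2 vehicle mice of CC015/Unc. Sult2a8 in CC015/Unc was 9.72, 10.27, 9.44 and 9.35 in the TAK-875 mice of strain pairs 1 to 4, against 5.92, 10.93, 4.26 and 9.96 in the vehicle mice. The values of vehicle mice 1 and 3 were the 2 lowest of all 342 mice. Sult2a2 in the same order was 3.65, 3.10, 6.25 and 2.57 in TAK-875 mice, against 5.72, 2.23, 10.09 and 2.60 in vehicle mice, where the median of all vehicle mice was 2.54. The highest Sult2a2 value of all, 10.83, was in a TAK-875 mouse of CC032/GeniUnc, whose Sult2a8 was 9.73. The SD between vehicle lines was 0.44 for Sult2a8 and 0.43 for Sult2a2, beside 0.66 and 0.88 between vehicle mice of a line.

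The same 2 vehicle mice of CC015/Unc were low in other male-biased liver genes. Ugt2b1 was 9.16 and 8.98 there, the 2 lowest values of 342, against 11.25 and 11.16 in the vehicle mice of strain pairs 2 and 4. Elovl3 was 4.08 and 3.25, against a vehicle median of 10.85, and Hsd3b5 was 4.70 and 2.90, against 10.33. The Y-linked genes Eif2s3y (6.12 and 6.20) and Kdm5d (4.86 and 5.14) were near their vehicle medians of 6.20 and 4.76. In the TAK-875 mouse of strain pair 3, Elovl3 was 4.27 and Hsd3b5 was 6.70, so low values were not restricted to vehicle mice. Their part in the member results was not tested, and values without the line follow.

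The 8 Ugt genes of the set had the smallest median SD between lines of the 3 families (0.28). This ranking does not cover the genes left out of the set, among them Ugt3a2. The SD between vehicle lines was 0.079 for Ugt1a6a and 0.27 for Ugt1a9, both transcribed from first exons of the Ugt1 locus and active on phenols, and 0.43 for Ugt2b34, 0.31 for Ugt2a3, 0.30 for Ugt2b1, 0.29 for Ugt2b35, 0.25 for Ugt2b5 and 0.18 for Ugt2a1. Whether the probe sets of Ugt1a6a and Ugt1a9 separate them from other transcripts of the locus was not tested. The other probe set of Ugt1a6a correlated at r = 0.78 with the chosen probe set over vehicle line means. Ugt1a9 was lowest in 6 lines, CC055/TauUnc first at a mean of 10.62 in TAK-875 mice and 10.80 in vehicle mice, against 11.42 or more in the other lines under vehicle. Ugt2b34 was low in CC021/Unc (8.27 in TAK-875 mice and 8.47 in vehicle mice) and CC005/TauUnc (9.50 and 8.57). Ugt2b5 was lowest in CC005/TauUnc, where it was 11.11, 11.17, 10.96 and 11.00 in TAK-875 mice and 10.14, 10.12, 10.60 and 10.11 in vehicle mice. The 4 Ugt2b genes, neighbours on chromosome 5, correlated over the 44 vehicle line means at a median r of 0.61 (6 pairs, 0.22 to 0.81), Ugt2b34 with Ugt2b5 most closely at r = 0.81, rho = 0.75 and r = 0.83 without the 2 farthest lines. Over the 244 pairs of members of different families the median r was -0.01, with a range of -0.43 to 0.75. Such correlation was not particular to the Ugt2b neighbours. Sult2a8, on chromosome 7, gave r of 0.59 with Ugt2b1, 0.53 with Ugt2b5, 0.48 with Ugt2b35 and 0.47 with Ugt2b34. With Ugt2a3 it gave 0.75 (0.64 without the 2 farthest lines) and with Ugt2a1 -0.20. Sult2a8 and Ugt2b1 were both lowest in CC015/Unc. Their r was 0.44 over the other 43 lines, and rho over all 44 was 0.41. Ugt2a3 itself gave 0.50 to 0.60 with the 4 Ugt2b genes.

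The second question was whether TAK-875 changed these genes on average over the lines. Of the 28 members 2 were higher in TAK-875 mice, Gstt3 and Gstm4, and 7 were lower, Ugt2b1, Gstm6, Ugt2a3, Gstm7, Gstt1, Gstk1 and Gstm5 (limma on 44 line means of pair differences, adjusted p below 0.05 over all 9093 genes). The other 19 did not pass. The share of members called, 32.1%, was near the background of 27.1%. Higher calls made up 7.1% of members, against 15.3% of all genes, and lower calls 25%, against 11.9%. Over all genes the split of 1388 higher and 1078 lower calls turned to 1052 and 1334 with arrays centred on their medians and to 1177 and 1383 with a second quantile normalisation, while the members gave 2 higher and 8 lower calls under each. The median difference was -0.05 log2 over members and 0.01 over all genes.

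By family, 2 of 8 Ugt genes fell and none rose. No Sult gene passed. An unadjusted limma p below 0.05 was found in 3 of 6 Sult genes, and in 3349 of all 9093 genes. Of the 14 Gst genes 2 rose and 5 fell. Most changes were small: the median size of the 9 differences called was 0.17 log2. Without the 2 uncertain pairs of CC010/GeniUnc the counts were again 2 higher and 7 lower, and no member changed its call. The share of all genes called was then 26.5%.

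**Figure D4:**
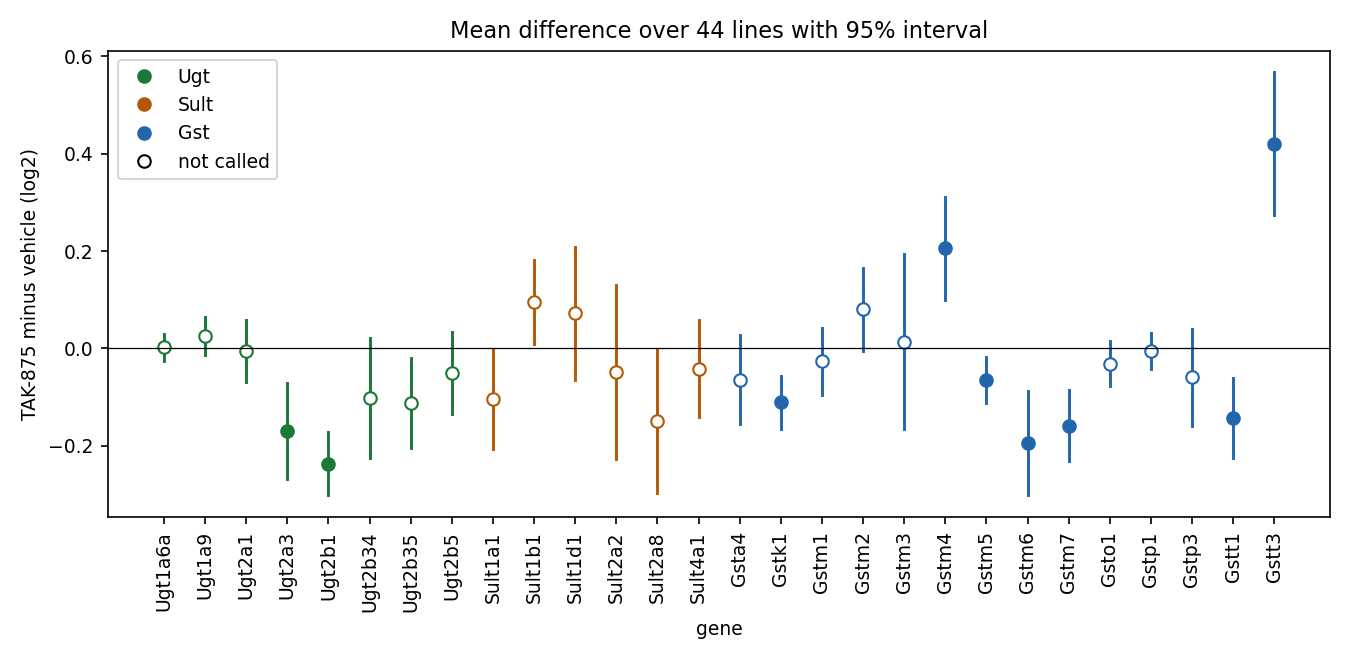
Mean difference of each gene over 44 lines, TAK-875 minus vehicle (log2), with its 95% interval from limma. Filled points passed an adjusted p of 0.05 over all genes and open points did not. Gstt3 and Gstm4 lie above 0 among the filled points, and the 7 others lie below.

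Gstt3, a theta class enzyme adjacent to Gstt1, had the largest difference. Its lowest, median and highest values were 7.34, 9.28 and 10.72 in TAK-875 mice, against 6.75, 8.96 and 10.63 in vehicle mice, so the ranges overlapped widely. Within pairs TAK-875 was higher in 127 of 171, and the line mean was higher in 33 of 44 lines. The mean difference was 0.42 ± 0.51 log2 (SD, n = 44 lines; 95% interval 0.27 to 0.57), or 1.34-fold (limma adjusted p = 1.18e-05). Gstm4 ran at a median of 9.36 in TAK-875 mice and 9.05 in vehicle mice, was higher in 34 of 44 lines and differed by 0.21 ± 0.37 log2 (limma adjusted p = 0.0024). Without the pairs numbered 3 in each line, Gstm4 gave 0.15 log2 and did not pass (limma adjusted p = 0.122).

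Gstt1 went the other way from Gstt3. Its difference was -0.14 ± 0.28 log2 (SD, n = 44 lines; limma adjusted p = 0.0057), with lower values in 38 of 44 lines and in 126 of 171 pairs. Without the pairs numbered 1 it was -0.09 log2 and did not pass (limma adjusted p = 0.139). The intervals of the 2 neighbours, -0.22 to -0.06 for Gstt1 and 0.27 to 0.57 for Gstt3, did not overlap, though the difference between the 2 genes was not itself tested.

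Among the other Gst genes, 3 mu class genes fell beside the rise of Gstm4. Gstm6 had medians of 7.43 in TAK-875 mice and 7.57 in vehicle mice and differed by -0.19 ± 0.37 log2 (limma adjusted p = 0.0042), lower in 31 of 44 lines. Gstm7 had medians of 9.25 in TAK-875 mice and 9.32 in vehicle mice and differed by -0.16 ± 0.25 log2 (limma adjusted p = 0.00066), lower in 34 lines. Gstm5 differed by -0.06 ± 0.15 log2 (limma adjusted p = 0.036), also lower in 34 lines. Gstk1 differed by -0.11 ± 0.18 log2 (limma adjusted p = 0.0014), lower in 33 lines and in 122 of 171 pairs. With the 24 pairs that held a poorly correlated array left out, which removed every pair of CC042/GeniUnc and CC053/Unc, none of these 4 passed (limma adjusted p of 0.148, 0.131, 0.0523 and 0.0519). Their differences were then -0.11 for Gstm6, -0.08 for Gstm7, -0.07 for Gstm5, slightly further from 0 than before, and -0.08 log2 for Gstk1. Gstp1 and Gsto1, the Gst genes of highest mean signal that did not pass, differed by -0.01 ± 0.12 and -0.03 ± 0.15 log2 and did not pass.

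Of the Ugt genes, Ugt2b1 fell in most lines. Its lowest, median and highest values were 9.39, 10.98 and 11.85 in TAK-875 mice, against 8.98, 11.23 and 11.85 in vehicle mice. The difference was -0.24 ± 0.22 log2 (SD, n = 44 lines; 95% interval -0.30 to -0.17; limma adjusted p = 1.05e-07), lower in 37 of 44 lines and in 122 of 171 pairs. Ugt2a3, whose human counterpart glucuronidates bile acids, had medians of 9.00 in TAK-875 mice and 9.25 in vehicle mice and differed by -0.17 ± 0.34 log2 (limma adjusted p = 0.0067), lower in 34 lines. Without the pairs numbered 2 it was -0.14 log2 and did not pass (limma adjusted p = 0.0547). Ugt1a6a and Ugt1a9, the Ugt genes of highest mean signal that did not pass, differed by 0.00 ± 0.09 and 0.03 ± 0.13 log2, with 95% intervals of -0.03 to 0.03 and -0.01 to 0.07. Ugt2b35 differed by -0.11 ± 0.32 log2, just short of the threshold (limma adjusted p = 0.064), and passed at 0.049 without CC015/Unc and at 0.026 with the study pair as the unit.

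The Sult genes had wide intervals. Sult2a8 differed by -0.15 ± 0.51 log2 over 44 lines (limma adjusted p = 0.131), and by -0.20 log2 without CC015/Unc, where it passed (limma adjusted p = 0.0087). Sult1a1 differed by -0.10 ± 0.35 log2 (limma adjusted p = 0.126), lower in 30 of 44 lines. It passed with the study pair as the unit (limma adjusted p = 0.032), which counts the pairs of a line as independent. Sult1b1 differed by 0.10 ± 0.29 log2 (limma adjusted p = 0.095) and passed without the poorly correlated pairs (0.13 log2, 0.0275). Sult1d1, Sult2a2 and Sult4a1 differed by 0.07 ± 0.47, -0.05 ± 0.62 and -0.04 ± 0.33 log2, with intervals that included 0. In whole liver, a change in RNA per cell and a change in the number of cells of a type cannot be told apart.

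The third question was whether the response differed between lines. It did so for 8 of the 28 members (28.6%), against 16.2% of all genes (limma moderated F test on 171 pair differences, adjusted p below 0.05). These were Gstt3, Gstt1, Sult1a1, Sult4a1, Gstk1, Ugt1a9, Gstp1 and Ugt1a6a. Several of these calls were lost without any pair being left out. With arrays centred on their medians Ugt1a6a, Ugt1a9 and Gstk1 did not pass (limma adjusted p of 0.332, 0.150 and 0.0741), Gsto1 did (0.0492), and the share of all genes was 20.6%. Gstp1 did not pass with a second quantile normalisation, without the trend in eBayes or with no replicate block (limma adjusted p of 0.0537, 0.0507 and 0.0598), nor did Ugt1a6a without the trend (0.0506). Gstk1 was also lost when the pairs of CC015/Unc were left out (limma adjusted p = 0.127), where the share of all genes was 16.9%. The SD of response between lines was as large in some members that did not pass, such as Gstm3 (0.33), Sult2a2 (0.28), Sult2a8 (0.26) and Ugt2b34 (0.24), whose pairs within a line varied more. Without the 2 uncertain pairs of CC010/GeniUnc there were 11, with Ugt2a3, Ugt2b34 and Ugt2b5 added (limma adjusted p of 0.0329, 0.0485 and 0.0292). The share of all genes was then 17.8%. With fewer pairs per line the count was 2 without the pairs numbered 1, 0 without those numbered 2 or 3, and 6 without those numbered 4, while over all genes the share called fell to between 1.42% and 7.59%.

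Gstt3 had the largest spread of response, with an estimated SD between lines of 0.38 log2 beside 0.68 between pairs of a line (limma adjusted p = 0.0073). Line means of the difference ran from -0.33 in CC055/TauUnc over a median of 0.38 to 1.72 in CC030/GeniUnc. In CC030/GeniUnc it was 8.69, 10.40, 8.78 and 8.26 in TAK-875 mice, against 7.30, 6.85, 7.03 and 8.08 in vehicle mice. In CC021/Unc it was 9.59, 10.30, 9.60 and 10.16 in TAK-875 mice, against 8.84, 7.91, 8.32 and 8.24 in vehicle mice. Neither line had an overlap between doses. The differences of 1.72 and 1.59 log2 passed within their lines (limma adjusted p of 0.0015 and 0.0027).

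**Figure D5:**
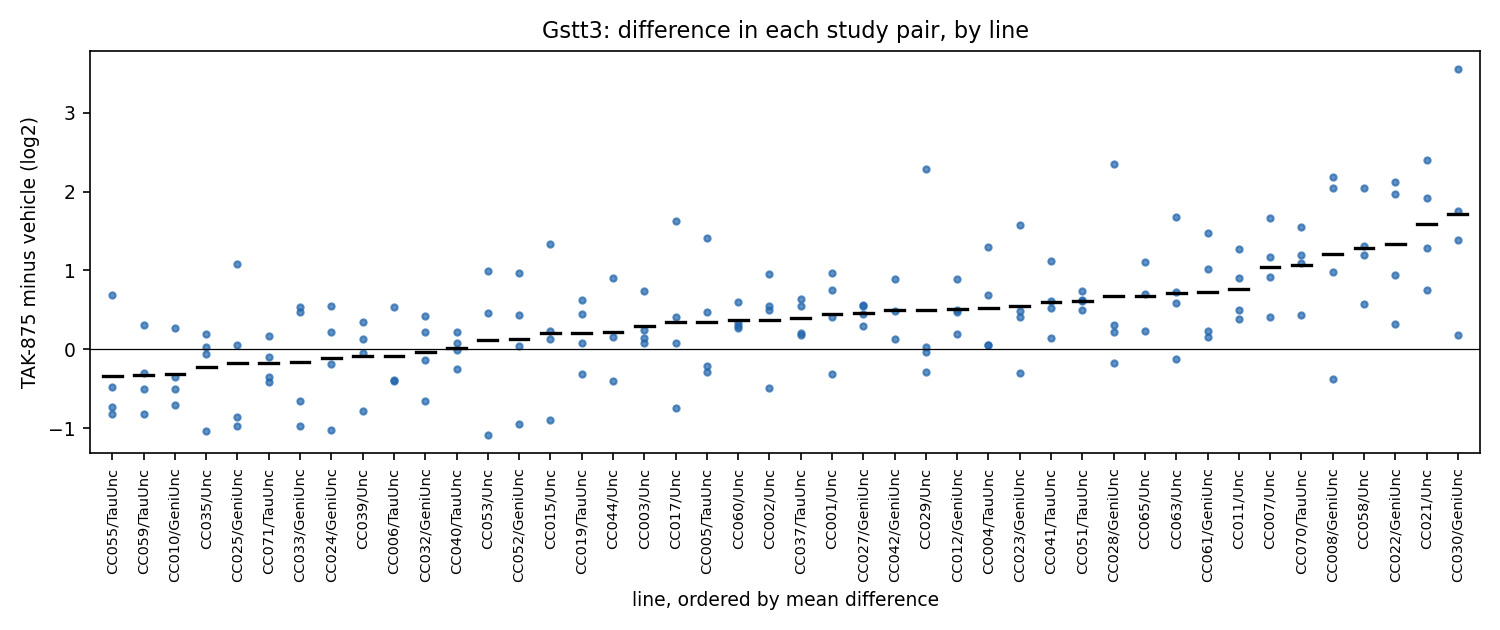
Gstt3 response by line. Points are study pairs (TAK-875 minus vehicle, log2), bars are line means, and lines are ordered by the mean. Line means run from -0.33 to 1.72, and pairs of a line often span more than 1 log2.

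Gstt1 and Gstt3 were seen together in the 5 lines with low Gstt1. In CC008/GeniUnc, CC030/GeniUnc and CC022/GeniUnc Gstt1 differed by 0.85, 0.76 and 0.39 log2 and Gstt3 by 1.21, 1.72 and 1.34 log2. In CC017/Unc and CC025/GeniUnc Gstt1 differed by 0.06 and -0.28 log2 and Gstt3 by 0.34 and -0.18 log2. The rise of Gstt1 passed in CC008/GeniUnc, where the doses overlapped, with 6.51, 6.89, 8.22 and 6.97 in TAK-875 mice against 6.92, 6.46, 6.90 and 4.93 in vehicle mice, and in CC030/GeniUnc, where they did not, with 6.88, 7.62, 6.76 and 7.08 in TAK-875 mice against 6.62, 5.89, 6.23 and 6.56 in vehicle mice (limma adjusted p of 0.0037 and 0.021). These 2 lines were among only 6 of 44 in which the mean of Gstt1 was higher in TAK-875 mice. A high difference in a line with a low vehicle mean shares that vehicle mean, so the 2 are not independent measures. CC029/Unc had the largest fall of Gstt1, at 9.08, 10.15, 10.62 and 10.09 in TAK-875 mice against 10.69, 10.56, 11.16 and 10.66 in vehicle mice (-0.78 log2; limma adjusted p = 0.0028).

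Over all lines, 20 of the 1232 tests of a member within a line passed, 11 higher and 9 lower, or 1.62%, against 1.64% of all gene by line tests (0.895% higher and 0.749% lower). This is the background rate. Lines differed widely in how many genes they called, from 1 of 9093 genes in CC032/GeniUnc to 1403 (15.4%) in CC041/TauUnc among the 12 lines with a called member. The members called are therefore given as values of their lines. Without the 2 uncertain pairs of CC010/GeniUnc the counts were 13 higher and 12 lower. The share over all gene by line tests without these pairs is not given here.

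Of the 9 falls within lines 6 were of Gst genes, in 3 lines, as were 6 of the 11 rises, while Gst genes made up 14 of the 28 members. CC029/Unc and CC053/Unc had low Gstm6 and Gstm7 together. Gstm6 was 8.12, 7.58, 7.59 and 5.26 in TAK-875 mice of CC029/Unc, against 8.63, 8.33, 8.53 and 7.72 in vehicle mice (-1.17 log2), and 6.41, 6.00 and 6.86 in TAK-875 mice of CC053/Unc, against 8.07, 7.65 and 7.65 in vehicle mice (-1.37 log2). The doses overlapped in CC029/Unc and did not in CC053/Unc. Gstm7 differed by -0.88 log2 in CC029/Unc and by -0.72 log2 in CC053/Unc, without overlap between doses in either. Every pair of CC053/Unc held a poorly correlated array. This line also had the lowest mean difference of all lines in Gstm1, Gstm3, Gstm4, Gstm6 and Gstp3. The part of array quality in its falls was not tested. Gstk1 in CC007/Unc was 10.34, 10.02, 9.48 and 9.81 in TAK-875 mice, against 10.43, 10.37, 10.61 and 10.44 in vehicle mice (-0.55 log2). Sult1a1 in CC028/GeniUnc was 7.62, 9.20, 8.49 and 10.32 in TAK-875 mice, against 10.50, 9.64, 10.54 and 10.54 in vehicle mice, a difference of -1.40 log2 in which the ranges met only at the highest TAK-875 mouse (limma adjusted p = 2.4e-05).

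Of the 11 rises 4 were of Ugt genes, 1 was of a Sult gene and 6 were of Gst genes. Gstm3 in CC021/Unc was 11.60, 10.42, 10.69 and 9.87 in TAK-875 mice, against 8.65, 8.12, 9.46 and 8.53 in vehicle mice (1.96 log2; limma adjusted p = 0.023), although its mean over lines was 0.01 ± 0.63 log2. Ugt2b5 in CC005/TauUnc, the line with its lowest vehicle mean, differed by 0.82 log2, and Ugt1a9 by 0.28 log2 in the same line. Ugt1a9 in CC032/GeniUnc was 11.54, 11.92, 11.56 and 11.03 in TAK-875 mice, against 10.77, 11.64, 10.81 and 10.77 in vehicle mice (0.52 log2; limma adjusted p = 0.00011). It was the only 1 of 9093 genes called in that line. Ugt2a1 rose by 0.56 log2 in CC052/GeniUnc, where Ugt1a6a differed by -0.18 log2, and Ugt2a3 differed by -0.71 log2 in CC041/TauUnc. The call of Sult2a8 in CC015/Unc (1.92 log2) rested on the 2 vehicle mice described above, since only 2 of its 4 pairs were higher, and Gstk1 in the same line differed by 0.51 log2.

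Genes that supply, accompany or follow conjugation were read from lists. Over all 9093 genes 27.1% were called, 15.3% higher and 11.9% lower, and each count below is to be read beside these shares. The lists are short and were not tested as sets. On the list for the supply of UDP-glucuronic acid, 2 of 5 genes rose and none fell. Ugdh, which makes it, rose by 0.12 log2 and the transporter gene Slc35b1 by 0.07 log2. Whether Slc35b1 carries UDP-glucuronic acid was not tested. Slc35d1, another transporter gene of the list, differed by 0.03 log2 and did not pass (limma adjusted p = 0.226). In the supply of PAPS and sulfate, 4 of 8 fell and none rose: the transsulfuration enzyme genes Cbs (-0.27) and Cth (-0.17), Papss2, which makes PAPS (-0.24), and the sulfate transporter gene Slc26a1 (-0.23). Cbs was lower in 41 of 44 lines. In the supply and turnover of glutathione, 3 of 12 rose and 4 fell, led by Gsr, the glutathione reductase (0.26), Oplah (0.25), Chac1 (-0.19) and Gclc, the catalytic subunit of the rate-limiting enzyme of glutathione synthesis (-0.16). None of 5 microsomal and other glutathione transferase genes passed.

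Among 16 other conjugating enzyme genes, 1 rose and 8 fell. Nnmt, which methylates nicotinamide, fell most (-0.54 ± 0.63 log2, lower in 36 of 44 lines), with Nat8 (-0.21), Acsm5 (-0.17) and Hnmt (-0.15) after it, and Tpmt rose (0.13). Of 5 genes that remove conjugates, Ces1g rose (0.28) and Gusb, the lysosomal glucuronidase, fell (-0.07). Of 9 exporters and uptake carriers of conjugates, Abcc3, which exports glucuronides from hepatocytes to blood, rose in 42 of 44 lines (0.50 ± 0.29 log2; limma adjusted p = 5.89e-13) and Abcc2, the canalicular exporter, rose by 0.21, while Slco1a1 (-0.25) and Abcc6 (-0.17) fell. Of 20 regulators 5 rose and 2 fell, with Nr1i3, which encodes CAR, at 0.40 and higher in 41 of 44 lines, Ppara at 0.19, the male-biased Bcl6 at -0.46 and Stat5b at -0.28. These differences are means over lines on the log2 scale, and those named passed the limma test over all genes.

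Some markers of cell types passed as well, where 15.3% of all genes were called higher and 11.9% lower. The hepatocyte list held levels between 11.87 and 12.69 per mouse (list mean) in TAK-875 mice and between 11.76 and 12.65 in vehicle mice, with 2 of 8 genes higher and 1 lower. Of the Kupffer cell and macrophage list 10 of 12 fell and none rose, with list means per mouse of 5.13 to 7.95 in TAK-875 mice and 5.96 to 8.56 in vehicle mice. Of the endothelial list 5 of 10 fell (5.69 to 6.73 in TAK-875 mice and 5.75 to 7.39 in vehicle mice), of the stellate cell list 2 of 7, of the B cell list 1 of 2 and of the red blood cell list 2 of 2. None of the 2 cholangiocyte, 3 neutrophil and 1 T or NK cell genes passed. Of the intestinal list 2 of 3 rose (Fabp2 and Lgals4) and of the pancreatic list 1 of 3 fell (Cela1). The part of these shifts in the results for the conjugating enzymes was not tested.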

How the data were processed

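Livers of 342 male mice (171 TAK-875, 171 vehicle) were each measured on 1 Affymetrix mouse expression array with 16397 probe sets. The values are deposited on the log2 scale. The submitters' processing notes name RMA and Affymetrix Power Tools, without a version, as the authors' tools. RMA corrects background and normalises quantiles across arrays, so differences are relative to the array as a whole. Values ran from 1.62 to 13.81 and array medians from 5.404 to 6.221. The number of arrays limits the precision.

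Probe sets were named from the platform annotation (13083 with 1 gene, 261 with several, 3053 with none). 9093 genes were tested with limma 3.58.1 in R 4.3.3 (eBayes with trend, Benjamini-Hochberg over all genes, threshold 0.05). The tests were of 44 line means of pair differences against 0, of lines among 171 pair differences, of lines among 171 vehicle arrays, and of each line's mean. The code was tested on simulated data.

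Every member may be named. Full statistics went to the members of each family with the largest called differences and the largest SD between lines, and to the most abundant members not called. The 4 largest called genes were taken from each pathway list. Members, lists and tests were chosen with earlier results of these data known.

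The labels call the mice matched pairs, so pair differences were used. Deviations from line and dose means correlated at a mean r of 0.036 within pairs and -0.012 between pairs of a line. Of 28 members 6 had several probe sets, with the same sign of difference except in Gstm3. The series text mentions 45 lines, and 44 were analysed here.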

Additional observations from a re-analysis of the deposited data

Results flagged for a closer look

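The response to TAK-875 differed between lines in 8 members by the F test of limma, with estimated SDs between lines of 0.381 for Gstt3, 0.268 for Sult1a1, 0.246 for Sult4a1, 0.211 for Gstt1, 0.125 for Gstk1, 0.101 for Ugt1a9, 0.0863 for Gstp1 and 0.0651 for Ugt1a6a (all log2). Among all 9093 genes 16.2% did so. Of the 8, Ugt1a6a, Ugt1a9 and Gstk1 did not pass with arrays centred on their medians, Gstp1 did not with a second quantile normalisation, without the trend or with no replicate block, Ugt1a6a did not without the trend, and Gstk1 did not without CC015/Unc.

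The text draws on 88 groups of 4 values, each of 1 gene in the mice of 1 line and dose. Of these, 6 held a mouse far from the other 3. Chance gives such a mouse in about 1 of 20 independent groups. These groups share mice, and many were picked for extreme values, so that rate is only a rough guide. All 6 were vehicle mice. Gstp3 in CC007/Unc had a mouse at 12.1, and Sult4a1 in CC032/GeniUnc had one at 4.1. Sult1a1 in CC028/GeniUnc had one at 9.64 and Ugt1a6a in CC008/GeniUnc one at 11.9, each below the other 3 mice. Ugt1a9 in CC032/GeniUnc had one at 11.6 and Ugt2b5 in CC005/TauUnc one at 10.6, each above the other 3. Sult1a1, Ugt1a9 and Ugt2b5 also passed the test within the line named. The causes were not tested.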

How the results depend on the processing

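All 28 members differed between vehicle lines under every setting run except without the pairs numbered 1, where Sult2a2 did not pass and 27 did. In the mean over lines, 3 members rose and 3 fell without the poorly correlated pairs, against 2 and 7. The share of all genes called was then 24.6%, against 27.1%. Leaving out 1 numbered pair per line gave 1 to 2 higher and 5 to 7 lower, with 21.2% to 26.3% of all genes called. With the study pair as the unit, and with no replicate block, 2 were higher and 8 lower. Ugt2b35 and Sult1a1 were added and Gstm5 no longer passed (limma adjusted p of 0.0778 and 0.065). Both settings count pairs or mice of a line as independent, and the share of all genes called rose to 33.7% and 33.9%. Gstm5 also did not pass without the pairs numbered 1 or 2 or without CC015/Unc, nor Gstm6 without those numbered 1 (limma adjusted p = 0.0619). With the other probe set Gsto1 was lower (-0.09). Leaving out 1 numbered pair gave 0 to 6 members with a response that differed between lines, against 8, with fewer pairs by construction. The share of all genes was then 1.42% to 7.59%, against 16.2%. With all pairs kept there were 6 with arrays centred (20.6% of all genes), 7 with a second quantile normalisation (18.2%) and 6 without the trend (15.0%). Without CC015/Unc there were 7 (16.9%). With no replicate block there were 8 (11.4% of all genes), where Gstp1 was lost and Ugt2a3 added. Tests within lines were not run with no replicate block. Under other settings they gave 5 to 14 higher and 8 to 15 lower calls, against 11 and 9. Shares of all genes are not given for these counts. The median correlation within subfamilies was 0.31, 0.35 with arrays centred and 0.32 with a second quantile normalisation. Alternatives for tests within lines, for correlations and for CC015/Unc, CC053/Unc and CC010/GeniUnc were chosen after seeing the data. Signs of the mean over lines turned only in members that passed under none of the settings run. With arrays centred Ugt1a6a was at -0.0127 and Gstm3 at -0.00082. Gstm3 was at -0.0338 with the mean of its probe sets and -0.0816 with its other probe set. Without the poorly correlated pairs Gstm1 was at 0.0020 and Gstp1 at 0.0028. Leaving out 1 numbered pair gave -0.0031 to 0.0101 for Ugt1a6a, -0.0316 to 0.0106 for Ugt2a1, -0.0331 to 0.14 for Sult1d1, -0.15 to 0.0216 for Sult2a2, -0.0564 to 0.0035 for Gstm1, -0.0569 to 0.0813 for Gstm3, -0.0133 to 0.0033 for Gstp1 and -0.15 to 0.0319 for Gstp3. The cause of these shifts was not tested. Dim probe sets (Sult2a2, Sult4a1) limit what their differences show.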
